A study of Caenorhabditis elegans with 18 samples.

Results

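Within the nematodes labelled 5 days old, the first listed library of each RNAi plasmid stands apart from the 2 libraries listed after it. The 3 first libraries (40, 43 and 46 in the submitters' numbering, here called the first libraries) are compared with the 6 later libraries (41, 42, 44, 45, 47 and 48). Together they are the 9 day-5 libraries of the 18 libraries in the series. They were chosen by their own counts: on the first principal component of all 18 libraries, which held 47.3% of the variance, the scores were -19.9 (L4440), -19.4 (T14F9.5) and -22.5 (M05B5.5) for the first libraries and 52.9 to 70.2 for the later ones. The gene values of the first and later libraries are therefore given as a description, without a test.

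Whole hermaphrodites of C. elegans strain N2, the usual wild type, carried one of 3 RNAi perturbations named by plasmid and were labelled with an age of 1 or 5 days. T14F9.5 is the sequence name of lin-32, a proneural factor related to fly atonal. M05B5.5 is that of hlh-2, the class I partner of such factors, and L4440 is the empty feeding vector. The first libraries are day-5 T14F9.5, M05B5.5 and L4440 with 1 library each, the later libraries are the same 3 groups with 2 libraries each, and the 9 day-1 libraries, 3 for each plasmid, are shown as levels only. The labels give neither the stage from which age was counted nor whether replicates were grown separately.

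An adult hermaphrodite makes yolk in the intestine and passes it to the oocytes, and its self-fertile period ends within the first days of adulthood. Body wall muscle, pharynx, epidermis and intestine are made of cells that no longer divide in the adult. Insulin-like signalling through the transcription factor DAF-16 sets the level of many stress, fat and immune genes of the intestine and epidermis.

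Library totals were 34504963 to 37812809 counts in the first libraries and 32507580 to 43016293 counts in the later libraries. Mean totals differed by -316992 counts, first minus later (exact permutation test over libraries, two-sided, p = 0.940, where 84 arrangements allow no p below 0.0119). Ribosomal RNA genes took 0.337% to 1.83% of the counts of the first libraries and 0.0803% to 1.18% of those of the later libraries. Of the day-5 libraries, lane 5 held 2 first and 1 later, lane 7 held 1 first and 2 later, and lanes 4 and 6 held 0 first libraries. The first libraries were close to each other. Over 14576 genes, the root mean square difference in log2 counts-per-million (CPM) was 0.327 to 0.355 between pairs of first libraries, 0.845 to 0.962 between a first and a later library, and 0.388 to 0.698 between pairs of later libraries. The plasmids' targets overlapped between the sets. hlh-2 had 59.1, 59.8 and 21.4 CPM in the first libraries of L4440, T14F9.5 and M05B5.5, an order kept for all triplets below, against 12.6 to 71.3 CPM (median 55.8) in the later libraries. lin-32 had 0.96, 1.07 and 1.0 CPM in the first libraries against 0.143 to 5.38 CPM (median 0.396) in the later libraries. hlh-2 was lowest in the M05B5.5 libraries (21.4 CPM in the first, 32.1 and 12.6 CPM in the later ones). The highest later values of lin-32, 5.13 and 5.38 CPM, are those of the libraries labelled T14F9.5, its own plasmid. lin-32 was thus not lowest under that label. Whether these counts come from the worm's own transcript alone was not tested.

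**Figure D1:**
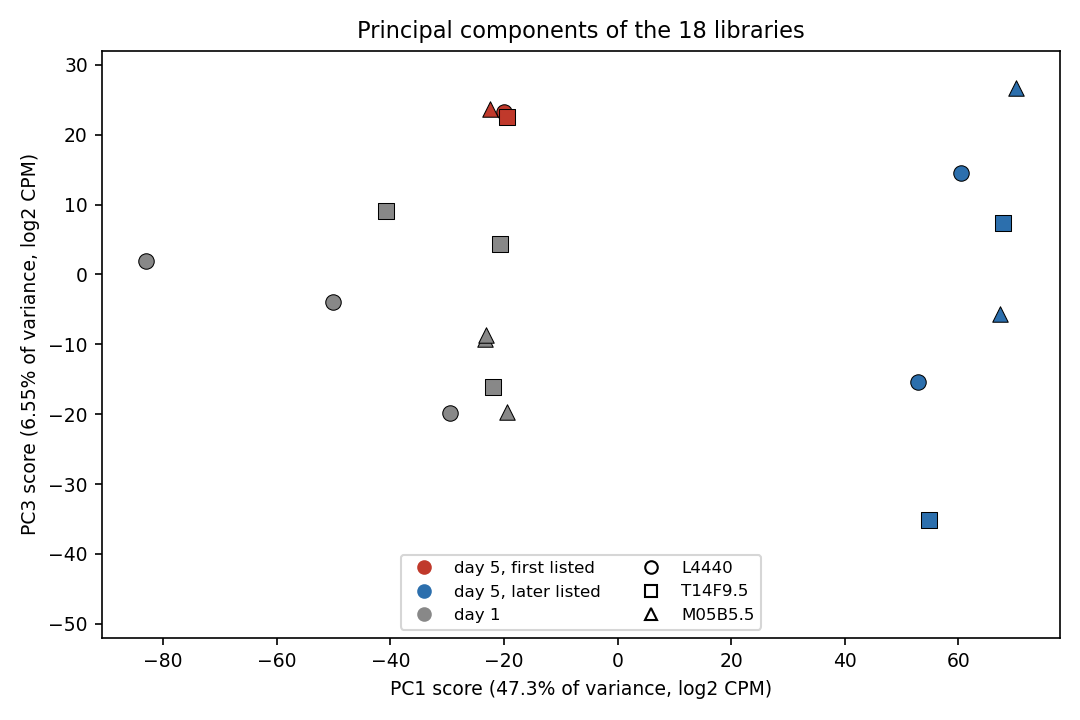
Scores of the 18 libraries on the first (x axis) and the third (y axis) components of log2 CPM, with colour for the day-5 sets and day 1 and shape for the plasmid. The 3 first libraries lie at -19.4 to -22.5 on the first component, beside the day-1 libraries (-83.0 to -19.4), and at 22.5 to 23.7 on the third one, above the day-1 libraries (-19.8 to 9.12).

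Of the 14576 genes, 1000 were higher and 957 were lower in the first libraries by at least 2-fold with no overlap between the 3 first and the 6 later libraries. These are 6.86% and 6.57% of the genes tested, the shares beside which the counts of each gene list below stand. Since these contrasts chose the libraries, nothing is read from them beyond their size. Differences of at least 4-fold were met by 181 of the higher and 303 of the lower genes, and those of at least 16-fold by 6 and 39. Fits within lane 5 or lane 7 alone had no plasmid term. They left a single later library in lane 5 and a single first library in lane 7. No count of genes is given for them, and only median differences of gene lists are given below. Chromosome X held the largest share of higher genes (11%, against 3.73% on chromosome I), and chromosome V the largest share of lower genes (9.99%, against 4.6% on chromosome I).

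The level of day-1 animals was set beside both sets. The first libraries were chosen on a component of all 18 libraries on which they lie beside the day-1 libraries. Their nearness to day 1 is therefore part of the choice, and the shares below are a description only. The mean of the first libraries lay inside the range of the 9 day-1 libraries for 80.3% of the higher and 80.8% of the lower genes, against 15.7% and 19.4% for the mean of the later libraries. Over all tested genes the shares were 83.9% for the first and 56.2% for the later libraries, so the first libraries' shares of called genes lie near the share of all genes. One day-1 library, the second of L4440, lies far from the other libraries (-83.0 on the first component) and widens that range. Without it the shares for the first libraries were 77.4% of the higher and 78.1% of the lower genes, and for the later libraries 7.2% and 10.3%, beside 81.9% and 48.5% over all tested genes.

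The 10 genes furthest above the later libraries were led by acdh-2, a gene of the acyl-CoA dehydrogenase family (chromosome II, 5544778 to 5547492, minus strand; coordinates are those of the Ensembl annotation of WBcel235, the build of the submitters' processing). acdh-2 had 36.7, 33.6 and 30.9 CPM in the first libraries against 0.39 to 1.59 CPM (median 0.942) in the later ones, a log2 difference of 5.17 ± 0.35 (first minus later, SE), the scale and direction of every difference below. The sets are far apart, and the 9 day-1 libraries held 22.7 to 35.8 CPM. Cuticle collagens made up 4 of the 10: col-93, col-20, col-80 and col-160. col-93 had 195, 153 and 209 CPM in the first libraries against 1.57 to 21.1 CPM (median 5.67) in the later ones (4.78 ± 0.76). col-20 (4.11 ± 0.74) had 295, 208 and 366 CPM against 6.48 to 50.1 CPM (median 13.9). The later libraries of both collagens spread over a far wider range, in ratio, than the first ones. col-160, at 198, 209 and 209 CPM against 8.26 to 24.9 CPM (median 12.2), overlaps col-159, col-93 overlaps dhc-4, col-80 overlaps dph-2 and nhr-114 overlaps Y45G5AM.9, so their counts are uncertain to that extent. col-93, col-20 and col-80 were below the lowest day-1 library in every first library (day 1 held 238 to 500.1 CPM, 462 to 1030 CPM and 279.8 to 484 CPM).

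nhr-114, a nuclear hormone receptor (chromosome V, 4187202 to 4190008, plus strand), had 131, 133 and 142 CPM in the first libraries against 5.93 to 11.9 CPM (median 8.9) in the later ones, a log2 difference of 3.95 ± 0.18. Every first library thus held over 10 times the highest later value, and day-1 libraries held 81.5 to 151 CPM. The remaining 4 are sri-40, of a chemoreceptor family, ceh-36, an Otx-type homeobox gene of sensory neurons, and the uncharacterised C09B8.4 and F08D12.2. sri-40 had 20.6, 23.7 and 25.1 CPM in the first libraries against 0.338 to 2.14 CPM (median 0.473) in the later libraries (4.61 ± 0.59). ceh-36 is a low transcript, at 5.62, 5.18 and 4.46 CPM against 0.0477 to 0.649 CPM (median 0.21) (4.01 ± 0.38).

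The 10 genes furthest below the later libraries were led by dct-8, named from screens for DAF-16 targets that act on tumours, and by its neighbours F56D6.8 and F56D6.9. dct-8 (chromosome IV, 3895070 to 3895506, plus strand) had 0.198, 0.0845 and 0.177 CPM in the first libraries against 15.1 to 47.4 CPM (median 27.6) in the later libraries, a log2 difference of -7.19 ± 0.45. F56D6.8 (chromosome IV, 3894058 to 3894430, minus strand) had 0.113, 0.113 and 0.236 CPM against 11.9 to 43.7 CPM (median 25.6) (-7.07 ± 0.54), and F56D6.9 (chromosome IV, 3892327 to 3893326, plus strand) had 0.113, 0.141 and 0.325 CPM against 12.9 to 44.6 CPM (median 27.2) (-6.91 ± 0.52). All 3 were near 0 in the first libraries, as in day-1 libraries (dct-8 0.244 to 0.706 CPM), and each had its lowest later value in T14F9.5 and its highest in L4440.

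ftn-1 and mtl-1 are also among the 10 lowest. ftn-1, the heavy chain of the iron store ferritin (chromosome V, 7546468 to 7547579, minus strand), had 0.0847, 0.254 and 0.148 CPM in the first libraries against 7.61 to 39.7 CPM (median 18.2) in the later ones (-6.60 ± 0.76). mtl-1, a metallothionein that binds zinc and copper (chromosome V, 6691371 to 6691863, minus strand), had 1.07, 0.564 and 0.679 CPM against 28.8 to 69.2 CPM (median 41.5) (-5.70 ± 0.33). Both were as low at day 1, at 0.144 to 0.481 CPM for ftn-1 and 0.794 to 1.92 CPM for mtl-1. The other metallothionein, mtl-2, was not called and averaged 19.8 ± 1.76 against 18.4 ± 2.75 CPM. lips-11, of a lipase-related family, had 0.395, 0.592 and 0.354 CPM in the first libraries against 12.4 to 44.4 CPM (median 27.8) in the later ones (-5.73 ± 0.34). F15B9.6, C50F7.5 and C18D11.6, without a described role here, had log2 differences of -6.27, -5.85 and -5.84.

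M03F8.6 (chromosome V, 5953826 to 5954847, minus strand), which overlaps M03F8.1, is the exception among the 10. It had 0.621, 0.507 and 1.12 CPM in the first libraries, and 112.4 to 126.5 CPM in the second listed libraries of the 3 plasmids but 1.17 to 2.002 CPM in the third listed ones. Its difference of -6.23 ± 2.84 therefore averages over later libraries that part into a high and a low trio, and day-1 libraries all held 82.2 to 157 CPM.

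**Figure D2:**
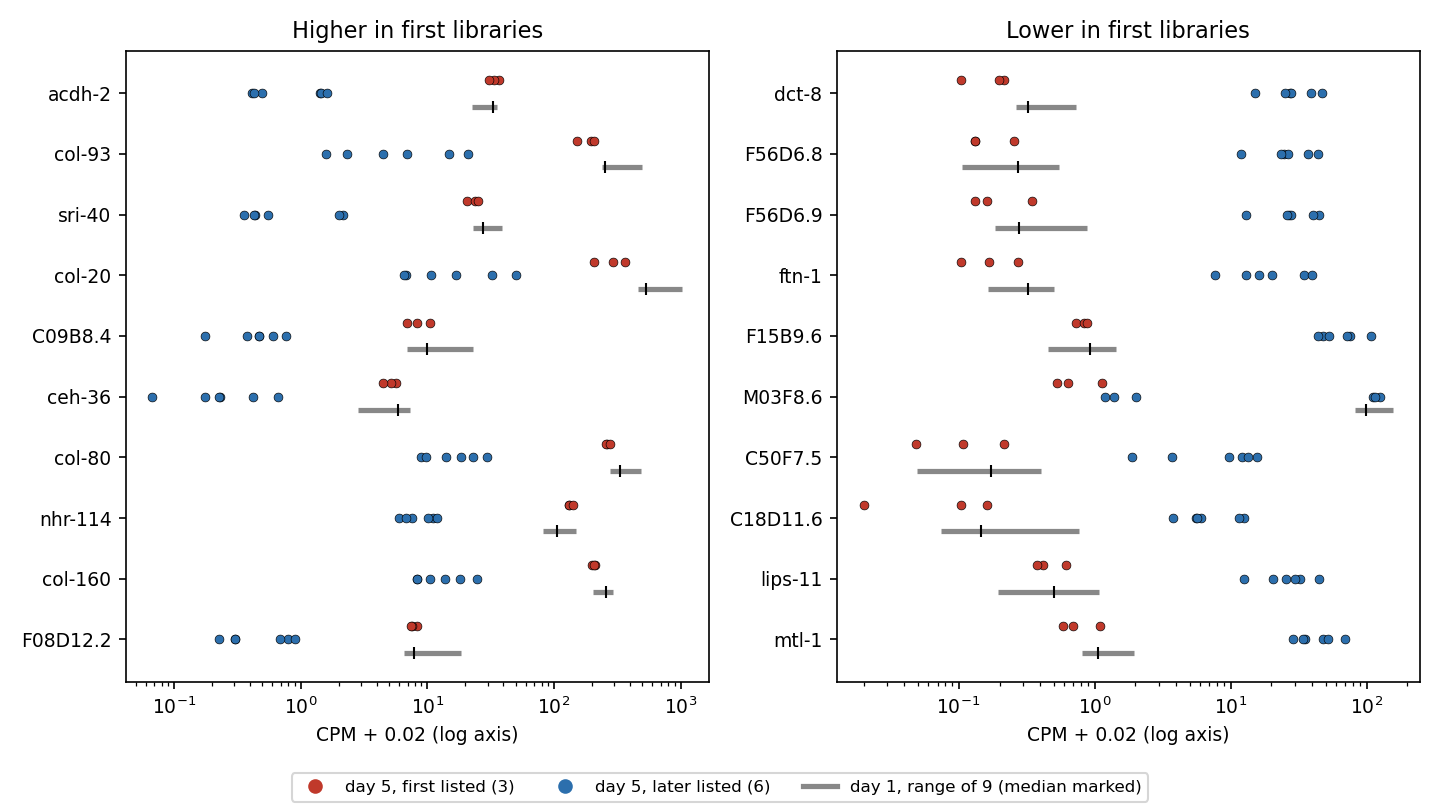
CPM (plus 0.02, log axis) of the 10 genes furthest above (left) and the 10 furthest below (right) in the first libraries, with a point per day-5 library and a bar from the lowest to the highest day-1 library. Most first libraries lie on or near the day-1 bar, but col-93, col-20 and col-80 lie below it, and for M03F8.6 the day-1 libraries (82.2 to 157 CPM) lie with 3 later libraries.

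Muscle transcripts stood higher in the first libraries. Of 34 body wall muscle genes, 19 were higher by the 2-fold rule and 0 lower, with a median log2 difference of 1.07 beside -0.015 over all tested genes. In RNA of whole animals, fewer cells of a type and less RNA per cell cannot be told apart. unc-54, the main myosin heavy chain of body wall muscle, had 796, 729 and 729.9 CPM in the first libraries against 203 to 279.8 CPM (median 229.7) in the later libraries, a log2 difference of 1.68 ± 0.088. All first libraries lay above all later ones by more than the spread within either set. lev-11, the tropomyosin of the thin filament, had 460.0, 420.4 and 500.1 CPM against 177 to 231 CPM (median 211) (1.14 ± 0.064). pat-10, the body wall troponin C, had 491, 552 and 530.5 CPM against 162 to 221 CPM (median 199) (1.43 ± 0.086). act-4, an actin whose copies are nearly identical, had 608, 612 and 616 CPM against 214 to 298 CPM (median 265) (1.22 ± 0.089). The giant proteins of the sarcomere stood among the highest: ttn-1, a titin-like protein, averaged 38.0 ± 9.95 against 8.87 ± 1.76 CPM (first against later libraries, SD, n = 3 and 6) and unc-22, the twitchin kinase, 111 ± 20.8 against 30.6 ± 3.63 CPM. hlh-1, the worm's MyoD-like factor, averaged 3.86 ± 0.487 against 0.834 ± 0.323 CPM.

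The muscle genes did not all part the sets. Among those not called, unc-45, the myosin chaperone, had a log2 difference of 0.13, pat-6, the parvin of the dense body, 0.071, and pat-3, the beta integrin, -0.15. myo-3, the minor body wall myosin, had 0.42. The level of the list, taken as the median over its members of log2 CPM minus each gene's mean over the 9 day-5 libraries, was 0.71, 0.68 and 0.76 in the first libraries against -0.54 to -0.24 (median -0.33) in the later libraries. Gene length moved with the sets in part. Each library's log2 CPM, less the 18-library mean, sloped by 0.134, 0.101 and 0.0753 for each doubling of exon length in the first libraries and by -0.00643 to 0.0747 in the later ones. The lowest of these is L4440 replicate 2, and the other later libraries lay at 0.0593 or above. In M05B5.5 the first slope (0.0753) was next to that of replicate 2 (0.0747). With each library's length trend removed, the muscle median was 0.94. Within lane 5 it was 1.14 and within lane 7 it was 0.97.

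The pharynx, the feeding pump with its own muscle and glands, stood higher as well. Of 18 pharynx genes 8 were higher and 0 lower (median 1.00). Its myosin heavy chain myo-2 had 44.6, 45.2 and 46.6 CPM in the first libraries against 10.9 to 18.5 CPM (median 13.96) in the later libraries, a log2 difference of 1.67 ± 0.11. myo-1, the partner chain, had 42.2, 42.7 and 41.9 CPM against 10.4 to 16.8 CPM (median 12) (1.72 ± 0.13). For myo-1 and myo-2 all 3 first libraries also exceeded the 9 day-1 libraries, which held 13.7 to 36.6 CPM and 14.7 to 36.9 CPM. phat-7, a small secreted protein of the pharyngeal gland family, had 39.3, 43.6 and 44.2 CPM against 10.5 to 16.4 CPM (median 12.8) (1.71 ± 0.10). myo-5, a further myosin, had a log2 difference of 1.36.

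Basement membranes are the sheets of laminin, type IV collagen and perlecan that surround muscle, pharynx and gonad. Of 15 such genes, a list chosen after its values were seen, 9 were higher and 0 lower (median 1.08). emb-9 and let-2, the 2 chains of type IV collagen, had 209.9, 132 and 152 CPM and 318, 197 and 252 CPM in the first libraries, against 56.9 to 93.1 CPM (median 72.1) and 96.5 to 143 CPM (median 113) in the later ones. Their log2 differences were 1.14 ± 0.11 and 1.11 ± 0.09, and for each chain the lowest first value lay in T14F9.5. The laminin chains epi-1 (alpha), lam-2 (gamma) and lam-1 (beta) averaged 157 ± 15.4 against 30.6 ± 7.33 CPM, 79.6 ± 10.5 against 26.6 ± 7.81 CPM and 144 ± 12.7 against 68.4 ± 12.8 CPM (first against later). ost-1, a SPARC-like protein, averaged 152 ± 6.64 against 75.7 ± 8.62 CPM. nid-1, nidogen, had a log2 difference of 0.11 and cle-1, collagen XVIII, -0.53. Of 19 genes of the somatic gonad, uterus and vulva, which also hold emb-9 and let-2, 5 were higher and 0 lower (median 0.42). tni-3, a troponin I, had a difference of 1.21. Among them tnt-3, a troponin T, had 63.7, 52.7 and 65.0 CPM against 11.1 to 19.6 CPM (median 13.8) (2.09 ± 0.12). With type IV collagen and troponins among its called genes, the list does not stand for the gonad alone. Of 5 markers of gonad sheath and spermatheca 0 were called (median 0.076).

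Cuticle collagens, the secreted proteins of the worm's exoskeleton made by the epidermis, parted by abundance. Of 117 tested (of 174 annotated), 38 were higher and 8 lower in the first libraries. The higher ones are mostly abundant, with a median of 83.3 CPM in the first against 11.8 CPM in the later libraries. The 8 lower ones are all scarce, at 0.0586 to 0.947 CPM against 0.434 to 4.70 CPM. col-181 had 769.7, 631 and 941 CPM in the first libraries against 214 to 419.8 CPM (median 255) in the later ones (1.42 ± 0.18). col-101 had 527, 469.7 and 625 CPM against 84.8 to 164 CPM (median 104.2) (2.18 ± 0.19). col-106 and col-95 had differences of 1.29 and 2.05. In col-181 and col-101 M05B5.5 gave the highest first value, and the day-1 libraries held 854 to 1858 CPM and 537 to 924 CPM. The median over all 117 was 0.068, with 71 members called in neither direction, and the later libraries spread widely in it (-0.63 to 0.83 (median -0.31)), overlapping the first (0.16, 0.17 and 0.23). That median was -0.03 within lane 5 and -0.08 within lane 7, and 1.38 when genes needed a count of 50.

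Antimicrobial peptides of the epidermis, which are induced by wounds and fungi, were lower more often than higher. Of 16 tested, 7 were lower and 2 higher (median -0.47). cnc-4, a caenacin, had 2.03, 1.52 and 1.83 CPM in the first libraries against 11.7 to 49.9 CPM (median 20.5) in the later ones (-3.70 ± 0.42). nlp-29, a neuropeptide-like member of the same defence, had 4.01, 3.58 and 3.37 CPM against 4.87 to 15.3 CPM (median 7.61) (-1.22 ± 0.30). nlp-31 and cnc-2 had differences of -1.77 and -2.48. The 2 higher ones are nlp-24 (2.69) and nlp-26 (1.62).

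Yolk transcripts stood higher in the first libraries. Of 6 vitellogenin genes 4 were higher and 0 lower (median 1.33). vit-2 had 21240, 19200 and 18570 CPM in the first libraries against 7301 to 11010 CPM (median 8637) in the later libraries, a log2 difference of 1.16 ± 0.12. vit-1 had 3660, 3146 and 3442 CPM against 431 to 758 CPM (median 527) (2.62 ± 0.12). The 2 genes do not share a ratio: every first library held over 4 times the highest later value of vit-1, and less than 2 times that of vit-2. vit-3 (2.28), vit-4 (1.505) and vit-5 (0.53) are near-identical copies, so the division of reads among them is uncertain. vit-6, the most abundant, averaged 25300 ± 2036 against 16800 ± 3232 CPM and missed the 2-fold rule.

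Digestive proteases of the intestine lay on both sides. Of 19 aspartyl and cysteine proteases 7 were higher and 3 lower (median 0.41). asp-1 had 1235, 1393 and 1141 CPM in the first libraries against 360.2 to 484 CPM (median 458) in the later libraries (1.52 ± 0.10), and asp-3 had 922, 1081 and 895 CPM against 272 to 515 CPM (median 304) (1.55 ± 0.17). cpr-1, a cathepsin B-like protease, lay the other way and averaged 169 ± 45.9 against 547 ± 116 CPM (log2 difference -1.70 ± 0.11). Thus yolk, asp-1 and cpr-1, all products of the intestine, do not share a direction. asp-17 had the lowest difference of the list (-4.96), and cpr-9 one of 1.00.

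Worms break propionate down either through enzymes that need vitamin B12 or through a shunt that does not. The 5 shunt enzymes and the 4 enzymes of the other route are lists chosen after their values were seen. All 4 of the shunt genes acdh-1, hphd-1, ech-6 and hach-1 were higher (median of 5 genes 1.41). acdh-1, the acyl-CoA dehydrogenase at the head of the shunt, had 1081, 1129 and 949.7 CPM in the first libraries against 75.5 to 293 CPM (median 128) in the later libraries, a log2 difference of 2.92 ± 0.35. hphd-1, a dehydrogenase of 3-hydroxypropionate, had 458, 469.7 and 376 CPM against 46.9 to 113 CPM (median 58.9) (2.65 ± 0.27). ech-6, the hydratase between them, had 468, 511 and 447 CPM against 162 to 212 CPM (median 166) (1.41 ± 0.10), and hach-1, the hydrolase, 291, 282 and 242 CPM against 98.8 to 136 CPM (median 106) (1.28 ± 0.099). alh-8, the last step, averaged 790.1 ± 73.6 against 432 ± 36.1 CPM and missed the 2-fold rule.

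The B12-dependent route had 0 of 4 genes called in either direction (median -0.020). mmcm-1, the methylmalonyl-CoA mutase that uses B12, had 191, 189 and 163 CPM in the first libraries against 181 to 239 CPM (median 208) in the later ones (-0.20 ± 0.086). pccb-1, a subunit of propionyl-CoA carboxylase, had 355, 356 and 306 CPM against 299 to 391.9 CPM (median 353) (-0.022 ± 0.088). The sets overlap in both genes. pcca-1 and mce-1 had differences of -0.017 and 0.015.

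S-adenosylmethionine is the cell's methyl donor, made from methionine. Of 12 genes of methionine, this cycle and its use, also listed after their values were seen, 4 were higher and 0 lower (median 0.67). msra-1, among those 4, acts on methionine in proteins and stands outside the cycle. sams-1, an S-adenosylmethionine synthetase, had 216, 237 and 216 CPM in the first libraries against 22.4 to 42.5 CPM (median 31.4) in the later libraries (2.79 ± 0.17). Its paralogue sams-5 had a difference of 1.95. Another, sams-4, averaged 79.5 ± 4.3 against 66.5 ± 1.91 CPM. pmt-2, a methyltransferase on the way to phosphatidylcholine, had 363, 386 and 327 CPM against 76.2 to 121 CPM (median 101) (1.88 ± 0.15). msra-1, which repairs oxidised methionine in proteins, had 106, 133 and 110.3 CPM against 14.7 to 17.4 CPM (median 16.3) (2.84 ± 0.079). The first libraries also exceeded every day-1 library in sams-1 (61.6 to 206 CPM) and msra-1 (37.5 to 82.5 CPM). metr-1, methionine synthase, averaged 276 ± 6.95 against 194 ± 12.6 CPM.

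**Figure D3:**
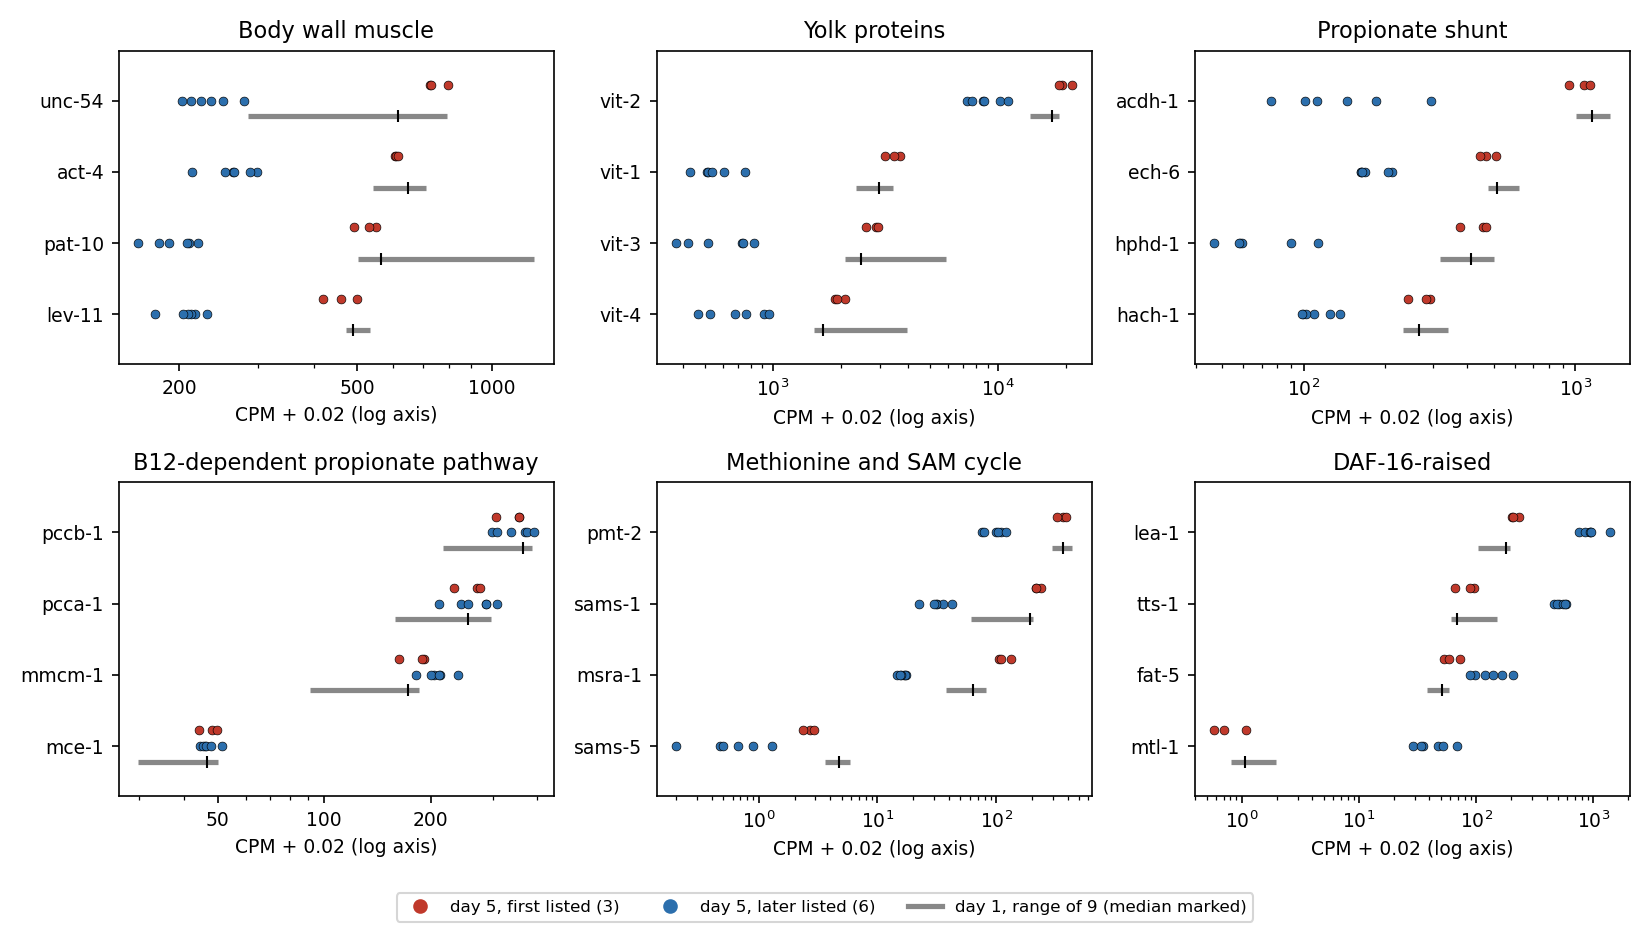
CPM (plus 0.02, log axis) of 4 members in each of 6 gene lists, with a point per first and later library and a bar for the range of the 9 day-1 libraries. The first libraries lie right of the later ones in the panels for muscle, yolk, the propionate shunt and the methionine and S-adenosylmethionine list. They lie left of them in the DAF-16-raised panel, and overlap them in the B12-dependent panel.

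Several genes that DAF-16 raises stood lower in the first libraries. Of 15 tested, 6 were lower and 0 higher (median -0.90). lea-1, a late-embryogenesis-abundant protein of desiccation tolerance, had 234, 204 and 207 CPM in the first libraries against 758 to 1390 CPM (median 936) in the later ones (-2.16 ± 0.17). tts-1, a long noncoding RNA, had 65.6, 95.2 and 88.5 CPM against 466 to 584 CPM (median 531) (-2.68 ± 0.095). fat-5, a palmitate desaturase, had 52.7, 73.1 and 59.1 CPM against 89.2 to 208 CPM (median 129.4) (-1.11 ± 0.30). The list was not uniform: sod-3, a mitochondrial superoxide dismutase, averaged 1.83 ± 0.178 against 2.47 ± 0.607 CPM, and icl-1, the glyoxylate cycle enzyme, averaged 316 ± 113 against 169.7 ± 64.1 CPM and missed the 2-fold rule on the higher side. A list of dct, dod and irg genes, named for control by DAF-16 or for the infection response, also held more lower than higher genes. Whether DAF-16 raises or lowers each of its members was not checked, so the list is not a class opposite to the one above. Of 24 tested, 10 were lower and 1 higher (median -0.72). dod-19 had 163, 201 and 160.0 CPM in the first libraries against 434 to 767 CPM (median 544) in the later libraries (-1.70 ± 0.17). dct-17 had a difference of -1.99. dct-18, the 1 higher gene, had 111, 110.1 and 116 CPM against 22.6 to 32.1 CPM (median 27.4) (2.005 ± 0.094). The infection response genes irg-1, irg-2, irg-3 and irg-6 were lower, with differences of -1.34, -1.92, -1.08 and -3.09. The other 4 were not called: irg-4 and irg-5 had -0.47 and -0.45, and the more abundant irg-7 and irg-8 had 0.43 and 0.34.

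Lysozymes and saposin-like proteins, which attack bacteria in the gut, were lower in 10 and higher in 3 of 35 (median -0.39, and -0.19 within lane 5). lys-7 had 71.4, 131 and 103 CPM in the first libraries against 916 to 2748 CPM (median 2055) in the later ones, a log2 difference of -4.22 ± 0.22. lys-4 lay the other way, with 183, 289 and 223 CPM against 27.1 to 58.2 CPM (median 45.8) (2.34 ± 0.18). Saposin-like spp-2 (-2.47) and spp-4 (2.48), which lie beside each other on chromosome X, also stood on opposite sides. C-type lectins held 26 higher and 14 lower of 108 tested (median 0.23, 0.44 within lane 5 and 0.13 within lane 7). clec-63, the most abundant called lectin, had 623, 665 and 593 CPM against 203 to 294 CPM (median 241) (1.38 ± 0.091), and clec-41 had 83.6, 66.5 and 69.9 CPM against 182 to 446 CPM (median 308) (-1.97 ± 0.27). clec-266 and clec-223 had differences of -1.82 and 1.10.

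Lysosomal lipases and heat-inducible chaperones held lower genes and no higher ones. Of 6 lysosomal lipases, a list chosen after its values were seen, 3 were lower and 0 higher (median -1.07, and -0.65 within lane 5). lipl-1, a lipase of lysosomal fat breakdown, had 0.395, 0.338 and 0.325 CPM in the first libraries against 5.64 to 20.1 CPM (median 13.6) in the later libraries (-5.04 ± 0.39). lipl-2 had 1.07, 0.902 and 0.975 CPM against 5.02 to 8.97 CPM (median 7.12) (-2.74 ± 0.18), and lipl-4 had a difference of -1.25. Among 11 cytosolic heat shock genes 3 were lower, all of them the kind induced by heat. hsp-70 had 0.48, 0.31 and 0.325 CPM against 3.4 to 7.99 CPM (median 4.32) (-3.49 ± 0.26), and hsp-16.2 had 0.226, 0.338 and 0.295 CPM against 2.72 to 5.82 CPM (median 3.43) (-3.50 ± 0.25). hsp-16.41, which lies beside hsp-16.2 on chromosome V, had a difference of -3.99. The constitutive chaperones hsp-1 and hsp-90 averaged 4272 ± 455 against 3472 ± 289 CPM and 4493 ± 620.4 against 3590 ± 306 CPM.

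Detoxification families held called genes on both sides. Cytochrome P450 genes were lower in 16 and higher in 3 of 62 (median -0.45), while UDP-glucuronosyltransferases were higher in 13 and lower in 8 of 60 (median 0.33). The level of the transferases overlapped between the sets, at 0.23, 0.29 and 0.14 in the first libraries against -0.33 to 0.16 in the later ones. That of the P450 genes did not overlap. Glutathione S-transferases held 6 higher and 4 lower of 39. cyp-34A9 had 1.67, 1.1 and 1.36 CPM in the first libraries against 14.6 to 42.8 CPM (median 25.4) in the later ones (-4.12 ± 0.35), and cyp-13A5 had 25.5, 30.8 and 25.1 CPM against 72.8 to 106 CPM (median 88.2) (-1.72 ± 0.15). ugt-47 lay the other way, with 34.1, 30.1 and 31.2 CPM against 7.86 to 12.1 CPM (median 10.4) (1.64 ± 0.13). gst-26 and gst-27, neighbours on chromosome II, were both higher (1.32 and 1.29), while gstk-1 and gst-5 had -1.23 and -1.21. The P450 genes cyp-33C8 and cyp-36A1 had -2.60 and -1.05. The transferases ugt-63, ugt-46 and ugt-12 had -1.21, 1.05 and 1.13. The P450 median was -0.11 within lane 5 and -0.48 within lane 7.

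A pair of F-box families, the substrate adaptors of ubiquitin ligases, held called genes mostly on opposite sides, in lists chosen after their values were seen. Of 97 fbxb genes 23 were higher and 0 lower (median 0.63), and 16 of those 23 lie on chromosome II. The fbxb level overlapped between the sets, at 0.50, 0.46 and 0.32 in the first libraries against -0.90 to 0.46 (median -0.21) in the later ones, and its median was 0.29 within lane 5 and 0.24 with lane as a term. Of 110 fbxa genes 31 were lower and 4 higher (median -0.53), with 14 of the 31 on chromosome III and 11 on chromosome V. fbxb-49 had 8.24, 8.12 and 7.32 CPM in the first libraries against 1.04 to 2.22 CPM (median 1.46) in the later libraries (2.32 ± 0.17). fbxa-60 had 14.4, 15.6 and 14.2 CPM against 38.3 to 54.98 CPM (median 46.1) (-1.60 ± 0.092). fbxb-37, fbxb-40 and fbxb-13 had 1.46, 1.08 and 1.796, and fbxa-107, fbxa-192 and fbxa-95 had -1.32, -1.02 and -1.36. Members of each family resemble each other and lie in runs, so reads may be shared among them. The pals genes, a list chosen after its values were seen, belong to the response to intracellular pathogens and were lower in 7 and higher in 0 of 21 (median -0.52, and -0.27 within lane 5). pals-6 had 0.282, 0.169 and 0.384 CPM against 2.12 to 2.84 CPM (median 2.18) (-2.83 ± 0.21). pals-26, pals-39 and pals-14 had differences of -2.79, -2.50 and -1.56.

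Many genes first transcribed in the early embryo stood higher in the first libraries. Of 52 tested, 23 were higher and 2 lower (median 0.64). sdz-30, a zygotic gene that depends on the embryonic factor SKN-1, had 35.8, 34.6 and 27.5 CPM in the first libraries against 3.72 to 7.02 CPM (median 5.12) in the later ones (2.65 ± 0.12). vet-6, a very early embryonic transcript, had 69.4, 73.5 and 47.7 CPM against 16.9 to 34.6 CPM (median 22.3) (1.41 ± 0.18), and sdz-33 had a difference of 1.07. end-1, a GATA factor that specifies the endoderm, averaged 2.16 ± 0.235 against 0.14 ± 0.0739 CPM, and ceh-51, a homeobox gene of the mesoderm precursor, averaged 3.98 ± 0.202 against 0.375 ± 0.255 CPM. The 2 lower genes are tbx-37 (-1.16) and tbx-38 (-1.44), a pair of T-box genes of the anterior embryo. hlh-1 and pha-4 stand in this list too and are also muscle and pharynx genes.

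Germ line lists held few or no called genes. Of 46 oocyte and germ line RNA regulators, 30 meiotic chromosome genes and 41 genes of DNA replication and the cell cycle, 0 were called in either direction, with medians of 0.047, -0.12 and -0.022. The level of the meiotic chromosome genes still parted the sets without overlap. It was -0.10, -0.12 and -0.064 in the first libraries against -0.038 to 0.14 in the later ones. Of 19 eggshell genes 1 was higher and 1 lower. Summed over the markers, the germ line held 2650 to 2899 CPM in the first and 2473 to 2840 CPM in the later libraries, and oocytes and eggshell 11570 to 12130 CPM in the first and 10940 to 13290 CPM in the later libraries. The largest part of the germ line sum is gld-1, which averaged 1370 against 1114 CPM. glh-1 and glp-1 also averaged more in the first libraries, and pgl-1, syp-1, him-3 and htp-3 less. Sperm transcripts were low in both sets: the 5 of 9 sperm markers tested summed to 3.75 to 6.94 CPM in the first and 3.62 to 5.25 CPM in the later libraries. Most of the first libraries' sum is spe-41, which averaged 4.93 against 1.18 CPM. The other markers tested, spe-9, spe-11, fer-1 and gsp-3, all averaged less in the first libraries, which the sums hide. Of 27 sperm genes other than major sperm proteins, a list that holds these 5 markers too, 9 were lower and 1 higher. fer-1, needed for sperm activation, had 0.593, 0.564 and 0.472 CPM in the first libraries against 1.91 to 2.63 CPM (median 1.97) in the later ones. spe-18 and ssp-10 had differences of -1.26 and -1.08. spe-41, a sperm calcium channel and the 1 higher gene, had 5.67, 3.04 and 6.08 CPM against 0.93 to 1.51 CPM (median 1.19). Of 10 major sperm protein genes that passed the count filter, of 31, 4 were lower (msp-50, msp-81, msp-33 and msp-36). All 4 were below 1 CPM in each day-5 library, and copies of this family are near-identical. They reached a count of 10 in later libraries alone, so the filter kept them through the set where they are high. Their direction is therefore not read as a result. msp-36 had 0 counts in the first libraries. Uterine lumen genes, listed after their values were seen, were lower in 3 of 5 and higher in 0. ule-4 had 387, 403 and 392.1 CPM in the first libraries against 706 to 958 CPM (median 801) in the later libraries (-1.05 ± 0.078), and ule-1 and ule-2 had differences of -1.19 and -1.76.

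Neuronal transcripts did not move as 1 group. The 7 neuron markers, 0 of them called, summed to 244 to 254 CPM in the first and 258 to 277 CPM in the later libraries. These sums do not overlap, and most of each is snb-1, which averaged 176 against 196 CPM. Of 30 FMRFamide-like neuropeptide genes 0 were called, and their levels overlapped. Of 30 synapse and neurotransmitter genes 2 were higher and 0 lower (median 0.24), a higher share near that of all genes. Their level lay the other way from the marker sum, without overlap. It was 0.080, 0.21 and 0.16 in the first libraries against -0.19 to 0.026 in the later ones. Cilia genes, which build the sensory endings of neurons, were lower in 5 and higher in 0 of 45 (median -0.35). dyf-3 had 1.58, 1.1 and 2.51 CPM in the first libraries against 3.34 to 8.06 CPM (median 4.9) in the later ones (-1.52 ± 0.29), and dyf-11, osm-6 and che-11 had differences of -1.83, -1.25 and -1.20. Chemoreceptor families held 8 higher and 15 lower of 69 that passed the count filter, out of 1273 annotated. srh-237 had 13.5, 15.3 and 13.3 CPM against 0.884 to 2.73 CPM (median 1.43) (3.21 ± 0.24), and str-7 had 2.12, 1.69 and 0.915 CPM against 6.5 to 13.4 CPM (median 10.4) (-2.61 ± 0.34), and srv-1 had a difference of 1.20. Of 25 insulin-like peptides 5 were lower and 1 higher. ins-7, a ligand of the insulin receptor DAF-2, had 0.452, 0.564 and 0.945 CPM in the first libraries against 4.8 to 11.7 CPM (median 9.67) in the later libraries (-3.63 ± 0.20), and ins-19 had 0.367, 0.592 and 0.679 CPM against 12.8 to 35.8 CPM (median 15.8) (-4.99 ± 0.25). ins-22 and ins-29 had differences of -1.13 and -1.09. The 2 small secreted families FIP and SCP-like held 5 higher and 3 lower of 14, and 2 higher and 3 lower of 11. Their medians were 0.69 and 0.26, and 0.24 and 0.93 within lane 5, and their levels overlapped between the sets. fipr-21, fipr-2, fipr-1 and fip-6 had differences of 1.10, 2.70, 3.25 and -3.48. scl-2, vap-1, scl-20 and scl-6 had -2.10, 2.14, -3.98 and 2.62.

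Core machinery held no called gene. Of 79 cytosolic ribosomal proteins, 65 mitochondrial ribosomal proteins, 44 nuclear-encoded respiratory chain subunits and 33 proteasome subunits, 0 were called in either direction. The medians were 0.32, -0.019, 0.17 and 0.090. The level of cytosolic ribosomal proteins was 0.17, 0.25 and 0.23 in the first libraries against -0.26 to 0.00069 in the later ones. That of the respiratory chain was 0.11, 0.16 and 0.13 against -0.15 to -0.0043. These levels thus parted the sets without overlap, while those of mitochondrial ribosomal proteins and proteasome subunits overlapped. Of 30 moulting and apical matrix genes 1 was higher and 1 lower, and of 18 endoplasmic reticulum stress genes 0 were called.

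**Figure D4:**
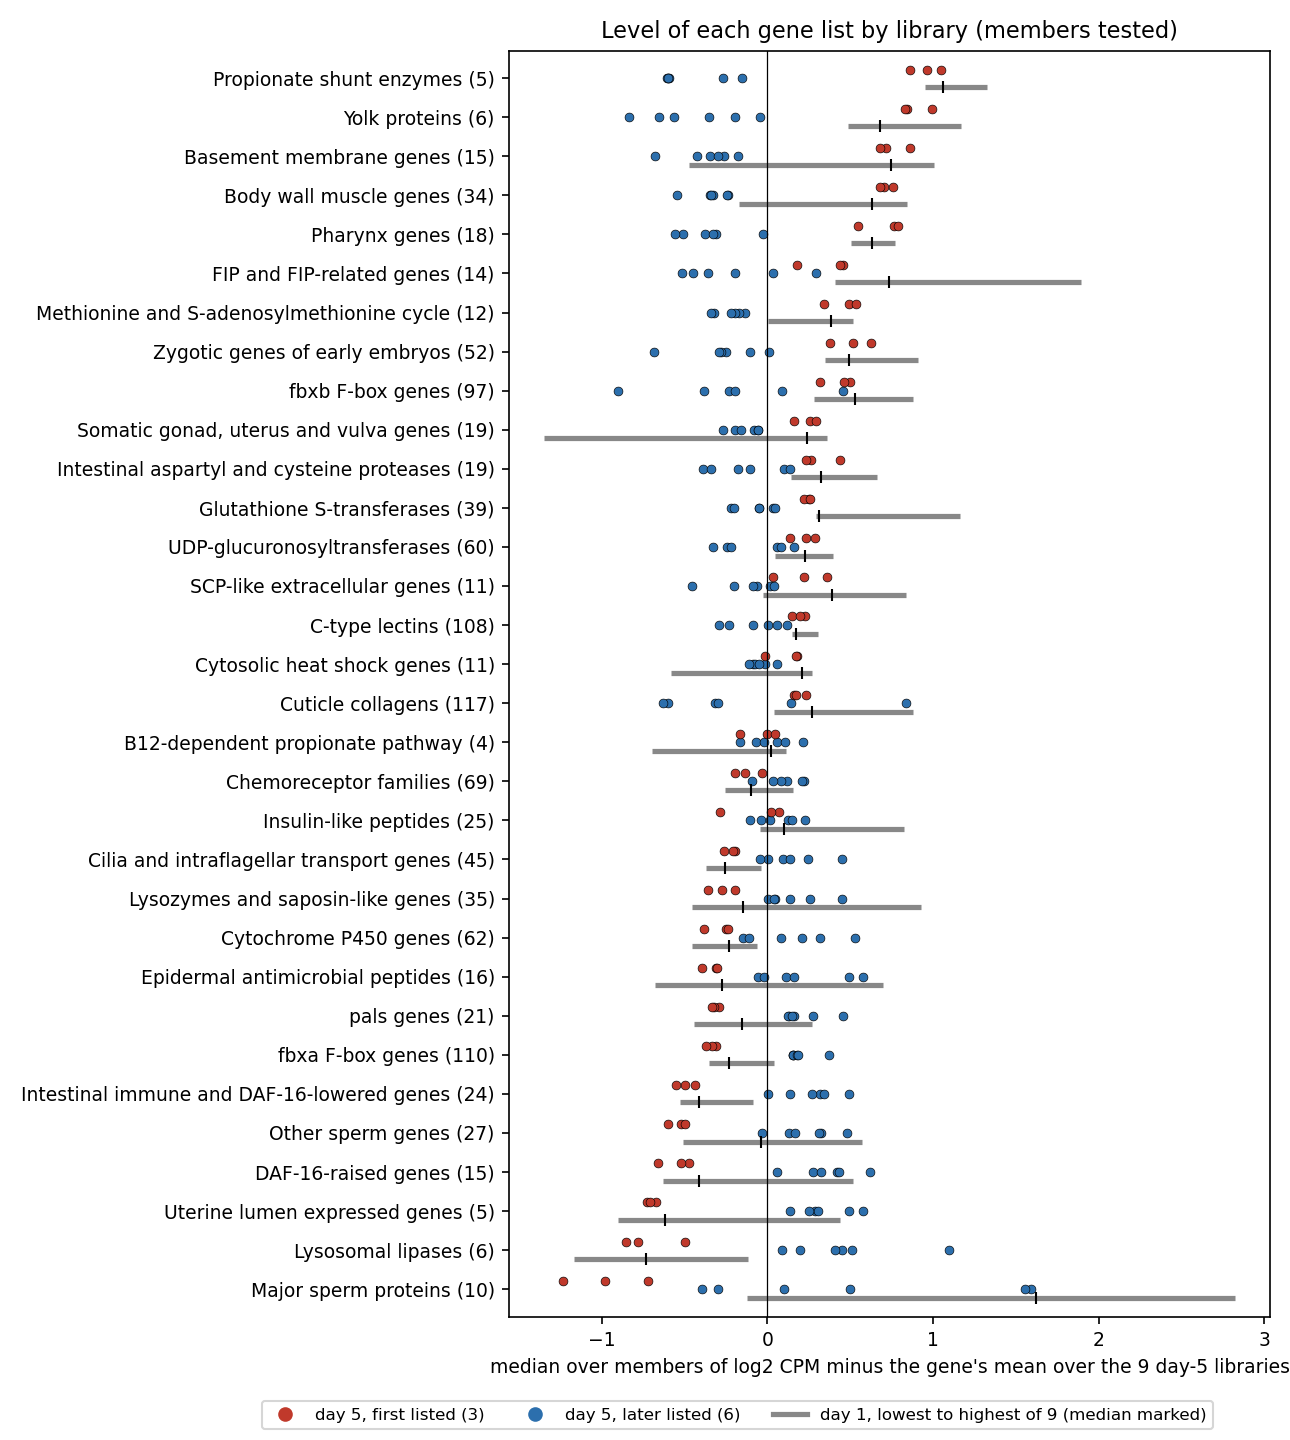
Level of 32 gene lists in each first library (red), each later library (blue) and over the day-1 libraries (bar), as the median over members of log2 CPM minus the gene's mean over the 9 day-5 libraries (x axis), with lists ordered by their median difference. Muscle lies at 0.68 to 0.76 in the first and -0.54 to -0.24 in the later libraries, and collagens at 0.16 to 0.23 in the first and -0.63 to 0.83 in the later libraries.

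Markers of several tissues moved beside these groups, but not all did. Summed over the markers of each tissue, body wall muscle held 1585 to 1712 CPM in the first and 467 to 643 CPM in the later libraries, and pharynx 116 to 119 CPM in the first and 50.7 to 63.8 CPM in the later libraries. Of 6 body wall muscle markers 5 were higher, and of 5 pharynx markers tested 2 were higher, with 0 lower in both. The 2 pharynx ones, myo-1 and myo-2, make up most of that sum, while tni-4 averaged 22.1 against 24.3 CPM. Epidermis markers summed to 138 to 227 CPM in the first and 47.3 to 71.8 CPM in the later libraries. The adult collagen col-19 averaged 163 ± 44.5 against 40.6 ± 7.32 CPM of these, and nlp-29, which is lower, 3.65 ± 0.327 against 8.98 ± 3.93 CPM. Intestine markers, of which vit-2 and vit-6 make up most, summed to 43450 to 50290 CPM in the first and 21430 to 34190 CPM in the later libraries, with 2 of 8 higher and 2 lower. elt-2, the GATA factor of the intestine, averaged 9.39 ± 0.852 against 8.41 ± 1.22 CPM, and ges-1, a gut esterase, 20.9 ± 1.69 against 44.2 ± 12 CPM. Early embryo markers, with 4 of 7 tested higher and 2 lower, summed to 17.4 to 20.7 CPM in the first and 10.2 to 20.8 CPM in the later libraries. Coelomocyte markers, of scavenger cells, summed to 6.44 to 7.64 CPM in the first and 10.1 to 13.7 CPM in the later libraries. Gonad sheath and spermatheca markers, with 0 of 5 called, overlapped. They summed to 62.3 to 69.6 CPM in the first and 56.8 to 84.7 CPM in the later libraries. The part of tissue amounts in these differences was not tested.

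The later libraries also varied among themselves. On the second component of the day-5 libraries alone (13.6% of their variance) T14F9.5 replicate 2 lay at -42.9, L4440 replicate 2 at -20.03 and M05B5.5 replicate 3 at 39.1. T14F9.5 replicate 2 and L4440 replicate 2 also held the highest levels of the later libraries for collagens (0.83 and 0.14) and for major sperm proteins (1.56 and 1.59). In the first component of the day-5 libraries (65.7% of the variance) the first libraries lay at -66.7 to -64.6 and the later ones at 27.8 to 38.4.

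**Figure D5:**
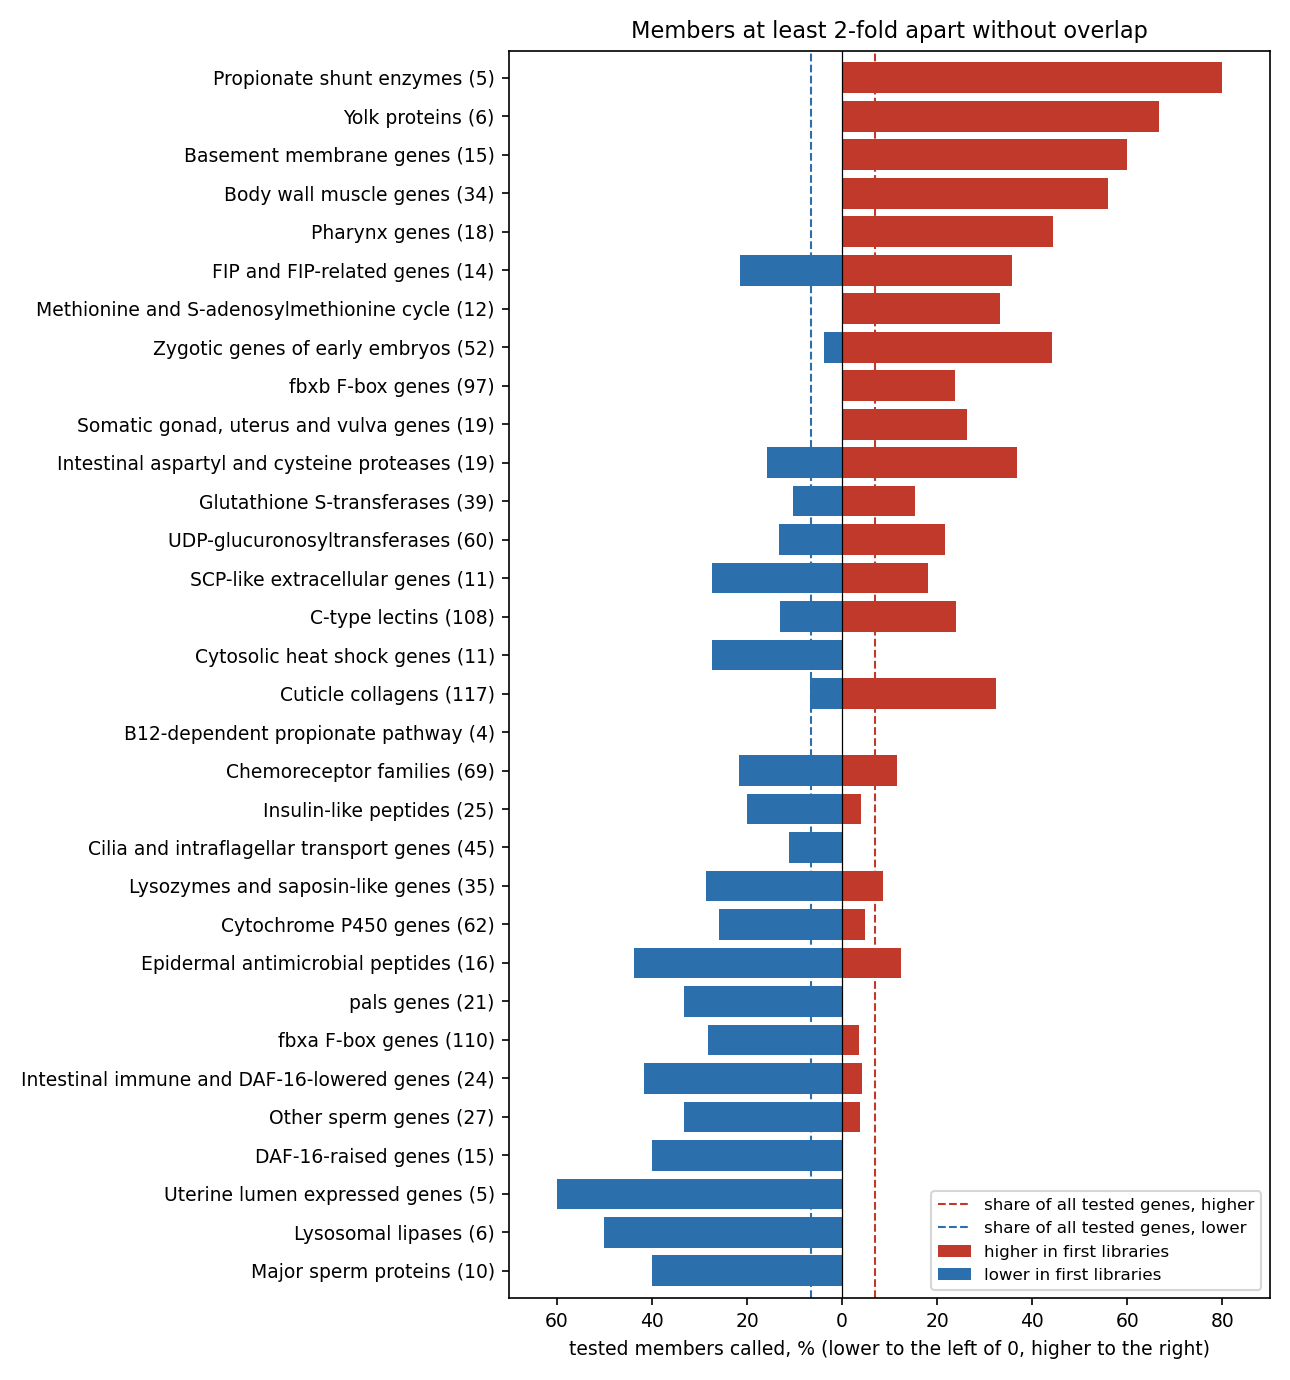
Share of tested members of 32 gene lists that were at least 2-fold higher (right) or lower (left) in the first than in the later libraries without overlap, with dashed lines at the shares over all 14576 genes (6.86% and 6.57%). Muscle, pharynx, yolk and basement membrane bars lie on the higher side alone, and the DAF-16-raised, lysosomal lipase and pals bars on the lower side alone.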

How the data were processed

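Total RNA of whole animals was made into TruSeq RNA (v2) libraries, per the labels' protocols. The submitters' processing notes name bcl2fastq 1.8.4, STAR 2.4.1d, featureCounts 1.4.6-p4 and the build WBcel235. The strand setting, the treatment of reads with several positions and the annotation release are not given in the sources used here. The deposited table holds raw counts per gene by the authors, and was used as it stands. A deposited RPKM table was not used. Ensembl release 115 named 46449 of 46748 gene identifiers.

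Groups follow the labels' plasmid and age. The 9 day-5 libraries were fitted with edgeR 4.0.16 in R 4.3.3 (filterByExpr with a minimum count of 10, TMM, prior count 2, robust quasi-likelihood fit, terms for plasmid and for first against later, 5 residual degrees of freedom). The fit gave log2 differences and SE. No p-value was taken, since the libraries were set apart by these counts. A gene was called at a 2-fold difference without overlap in TMM-scaled CPM. Library totals were compared by an exact permutation test. The labels do not say that replicates are separate cultures, so errors measure only the spread between these libraries, which may be technical.

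Members, 53 gene lists and rules were chosen with earlier results of these data known, and 9 lists were added after values were seen. Lists described have at least 5 tested members and are the 8 highest and 8 lowest medians, or have a share called at least 3 times that of all genes. Genes named by rule are the 10 highest and 10 lowest called genes of at least 5 CPM that part in each plasmid, the plasmid targets, and up to 4 called members of each list by abundance. Other members named were chosen after their values were seen, to show the range of a list. Sequences are not used here. The steps were tested on simulated data. Alternatives were scaling by RLE or the upper quartile, dropping the filter or raising its minimum count to 50, DESeq2 1.42.0, no plasmid term, lane as a term, single lanes, all 18 libraries, a 4-fold threshold, a gene length offset (spline with 4 degrees of freedom) and leaving out each library. Figures were drawn with matplotlib 3.10.9.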

Additional observations from a re-analysis of the deposited data

Results flagged for a closer look

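For 5 results there was a first library above both later libraries of its own plasmid in 1 plasmid and one below both in another. The differences between plasmids were not tested, and no explanation is offered. For lin-32 the log2 difference, first library minus the mean of the later ones, was 1.26 in L4440, -2.24 in T14F9.5 and 2.21 in M05B5.5. For pccb-1 it was 0.227 in L4440, 0.0131 in T14F9.5 and -0.322 in M05B5.5. For pcca-1, the other carboxylase subunit, it was 0.254 in L4440, 0.0306 in T14F9.5 and -0.349 in M05B5.5. For mce-1, the epimerase of the same route, it was -0.0300 in L4440, 0.0732 in T14F9.5 and 0.00304 in M05B5.5. The level of the 4 genes of the B12-dependent route differed by 0.113 in L4440, 0.0268 in T14F9.5 and -0.326 in M05B5.5.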

How the results depend on the processing

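No paired analysis was possible because the labels give no replicate numbers shared between groups, only running library numbers, and the gene values come from no test. Plasmid was a term in the fit, and lane was tried as a further term. With a minimum count of 50, 712 genes were higher and 598 lower, and at 4-fold 181 were higher and 303 lower. Leaving out 1 library at a time gave 955 to 1111 higher and 935 to 1012 lower genes. The difference in the library totals of first and later day-5 libraries ranged over -1178940 to 922798 counts when a library was left out, and turned positive without M05B5.5 replicate 1 (680703) or M05B5.5 replicate 3 (922798). With DESeq2 the list median was -3.05 for Major sperm proteins. With the length trend removed the list median was 0.94 for Body wall muscle genes, 0.45 for Glutathione S-transferases. Within lane 5 the list median was 0.69 for Intestinal aspartyl and cysteine proteases, -0.19 for Lysozymes and saposin-like genes, 0.44 for C-type lectins, -2.87 for Major sperm proteins, -0.36 for Chemoreceptor families, -0.11 for Cytochrome P450 genes, 0.56 for UDP-glucuronosyltransferases, 0.31 for Somatic gonad, uterus and vulva genes, 0.24 for FIP and FIP-related genes, 0.93 for SCP-like extracellular genes, 0.12 for B12-dependent propionate pathway, -0.85 for Uterine lumen expressed genes, -0.27 for pals genes, -0.45 for fbxa F-box genes, -0.65 for Lysosomal lipases. Within lane 7 the list median was -0.54 for Lysozymes and saposin-like genes, 0.97 for Body wall muscle genes, 0.80 for Pharynx genes, 0.29 for Somatic gonad, uterus and vulva genes, -1.46 for Lysosomal lipases. With lane as a term the list median was -0.18 for Lysozymes and saposin-like genes, -0.70 for DAF-16-raised genes, -2.43 for Major sperm proteins, 0.76 for Pharynx genes, -0.60 for Cilia and intraflagellar transport genes, -0.38 for Chemoreceptor families, -0.14 for Cytochrome P450 genes, 0.53 for UDP-glucuronosyltransferases, 0.14 for Somatic gonad, uterus and vulva genes, 0.60 for SCP-like extracellular genes, 1.60 for Propionate shunt enzymes, 0.24 for fbxb F-box genes, -0.71 for Lysosomal lipases. With a minimum count of 50 the list median was 1.38 for Cuticle collagens, -0.61 for Other sperm genes, -0.010 for Chemoreceptor families, 0.15 for Glutathione S-transferases, -1.82 for Lysosomal lipases. Leaving out 1 library at a time gave list medians of 0.20 to 0.40 for C-type lectins, -0.47 to -0.17 for Cilia and intraflagellar transport genes, -0.36 to -0.054 for Insulin-like peptides, 0.33 to 0.62 for Intestinal aspartyl and cysteine proteases, -1.06 to -0.70 for Other sperm genes, 0.80 to 1.19 for Pharynx genes, -0.63 to -0.43 for fbxa F-box genes, -0.58 to -0.39 for pals genes. The other alternatives left list medians within 1 SD of the level between libraries. Over the named genes and alternatives, 2684 values moved by less than the spread between libraries and 146 by more. Called genes were chosen for no overlap between the sets, so that leaving out a library cannot turn their direction. The causes were not tested. Scarce families such as sperm proteins and chemoreceptors rest on few counts, and near-identical copies limit what their values show. A gene scarce in 1 set can pass the count filter through the other set alone.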

Other observations

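M03F8.6 was not alone in parting the later libraries by their place in the list. Genes named here were chosen after their values were seen, and no test was made. In 12 of 14576 genes all 3 second listed libraries exceeded all 3 of those listed after them by at least 2-fold, on CPM plus 0.1, and in 6 genes the reverse held. M03F8.6, C55C3.3, C55C3.6 and C55C3.7 were at least 4-fold apart. C55C3.3 (chromosome IV, 5685287 to 5688273) had 0.508 to 0.789 CPM in the first libraries, against 14.8 to 19.2 CPM in the second listed and 0.882 to 1.51 CPM in the third listed libraries. Its neighbour C55C3.6 (5683184 to 5684727) had 0.0282 to 0.0886 CPM in the first libraries, against 2.005 to 2.72 CPM in the second and 0.0780 to 0.191 CPM in the third listed ones. Day-1 libraries held 5.32 to 12.8 CPM of C55C3.3 and 0.463 to 2.80 CPM of C55C3.6.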
